A study of Homo sapiens with 6 samples.

Results

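Collagens are extracellular matrix proteins built from 3 chains that wind into a triple helix, and the chains of 1 molecule may come from 1 gene or from several. The members described here are the protein-coding genes of the table whose symbol is COL, a number, A and a number, and they were 44 of 58735 genes. Fragments were found for 38 of the 44 in at least 1 library. The libraries came from HaCaT cells, a spontaneously immortalised line of human keratinocytes labelled wild type. One group of 3 samples was the control, and the other 3 had been exposed for 48 h to dacomitinib, an irreversible inhibitor of EGFR family receptor kinases, from 70% confluence. The dose is not given in the sources used here, and the design text names 0.1% DMSO for the experimental group only. All columns come from 1 cell line, and no label says whether samples of a group were separate cultures. The p-values below thus rest on the variation among these 6 libraries alone, and that variation may be technical. The treated columns carry a letter that no label explains and were assigned to dacomitinib by elimination, so every direction below rests on that assignment.

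In skin, basal keratinocytes rest on a basement membrane whose network is made of collagen IV. COL17A1 is a transmembrane collagen of the hemidesmosome, the junction that ties the basal keratinocyte to that membrane, and COL7A1 forms the anchoring fibrils that fasten the membrane to the dermis beneath. Chains of collagen IV come from 6 genes that lie as head-to-head pairs. COL4A1 and COL4A2 chains assemble with each other, COL4A3 and COL4A4 chains assemble with COL4A5, and COL4A5 chains can also assemble with COL4A6. Fibrillar collagens such as those of COL1A1, COL1A2 and COL3A1 are mainly products of fibroblasts.

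For 2 of the head-to-head pairs a stretch between the genes is shown, because the collagen IV results below are given pair by pair. Whether these stretches regulate either gene was not tested. The stretches below lie between the 2 genes, in no annotated exon of either, and are given on the plus strand (RefSeq promoter windows, GRCh38.p14). The first, chr2:227164454-227164564, holds all 111 bases between the annotated COL4A4 and COL4A3 genes. The second, chrX:108439498-108439797, holds the 300 bases next to COL4A6 out of the 346 between it and COL4A5. Capitals mark CCAAT or its reverse complement, and the GC box GGGCGG or its reverse complement.

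COL4A3 and COL4A4: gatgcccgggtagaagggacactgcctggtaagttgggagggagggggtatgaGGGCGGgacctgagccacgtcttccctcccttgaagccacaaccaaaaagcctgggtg
COL4A5 and COL4A6: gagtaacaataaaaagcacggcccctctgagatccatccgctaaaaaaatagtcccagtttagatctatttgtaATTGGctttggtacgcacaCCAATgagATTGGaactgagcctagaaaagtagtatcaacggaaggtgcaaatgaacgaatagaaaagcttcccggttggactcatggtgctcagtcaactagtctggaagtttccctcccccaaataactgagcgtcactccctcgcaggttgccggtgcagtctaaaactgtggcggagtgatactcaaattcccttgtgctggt

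The COL4A5 and COL4A6 stretch held CCAAT 3 times and no GC box, and 46.3% of its bases were G or C. The COL4A3 and COL4A4 stretch held 1 GC box and no CCAAT, with 61.3% G or C. Over all 35116 RefSeq promoter windows of 300 bases, 34.6% held CCAAT. A GC box was present in the 111 bases before the start in 32.9% of all windows. That share is for another position, since the COL4A3 and COL4A4 stretch does not reach the RefSeq start of either gene. For COL4A1 and COL4A2 the RefSeq starts are 126 bases apart, and no long run between them lies outside the annotated exons, so no sequence is shown. The RefSeq windows give COL4A6 a second start, inside the gene. The table has 1 value per gene and cannot separate transcripts from those starts.

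Windows were matched for 32 of the 44 genes, 44 windows in all. A GC box was found in 24 of the 44 windows (21 of the 32 genes), against 45.0% of all windows. CCAAT was found in 14 of the 44 (12 genes), against 34.6%, and TATAAA in 8 (7 genes), against 11.5%. The AP-1 site TGANTCA was found in 1 of the 44 windows (1 gene), against 7.71% of all windows. The FOXO site GTAAACA was found in 0 of the 44, against 3.42%, and the TEAD site GGAATG in 3 (3 genes), against 14.0%. All motifs were searched on both strands. A match is a description of letters, not a binding site.

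Values are FPKM, fragments scaled for gene length and for the size of the library, which allow levels of different genes to be compared. Libraries held 14960650 to 16179273 fragments on genes. Collagen genes held 0.0998 ± 0.00325% of the fragments in controls and 0.121 ± 0.00338% with dacomitinib (SD, n = 3). The collagen FPKM of a control library came to 116, 115 or 121, and that of a dacomitinib library to 129, 131 or 128, without overlap. COL17A1 alone made up 61.3 ± 0.287% of that sum in controls and 63.1 ± 0.665% with dacomitinib. These HaCaT cells thus held collagen mRNA of mostly 1 kind, and all 12 keratinocyte markers examined were above the expression limit used below. Those markers summed to 1480 to 1550 FPKM in controls and to 1145 to 1338 FPKM with dacomitinib. On the TPM scale, in which each library sums to the same total, the sums overlapped, at 5114 to 5200 and 5013 to 5426. Of the 12, 3 were called higher and 6 lower, against 5 higher and 3 lower with TPM. The test was limma on log2(FPKM + 1) across the 13748 genes with a mean of at least 1 FPKM over the 6 libraries, with Benjamini-Hochberg adjustment over all of them and a threshold of 0.05. A log2 difference is dacomitinib minus control on that scale, which understates the change of low genes.

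Of the 44 collagen genes, 10 reached the expression limit. COL17A1, COL4A5, COL12A1, COL27A1 and COL3A1 rose with dacomitinib, COL4A1, COL4A2 and COL7A1 fell, and COL16A1 and COL4A6 did not pass. Of all genes tested, 25.4% were called higher and 34.8% lower, so that 60.2% of genes were called in all, against 8 of these 10. With TPM 42.0% were called higher and 19.8% lower. Most of the transcriptome was thus called, and the collagen count has to be read against that. Lack of overlap between the groups was common too. Of all genes tested, 28.9% did not overlap with dacomitinib higher and 38.2% with dacomitinib lower. COL4A1 and COL4A6 reached the limit only through their control level and COL3A1 only through its dacomitinib level. Such genes enter the test because 1 group is high, so the count supports nothing about collagens as a set. The median log2 difference of the 10 was 0.15, and that of all tested genes was -0.06. In a bulk sample, fewer cells of a type and less RNA per cell cannot be told apart.

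**Figure D1:**
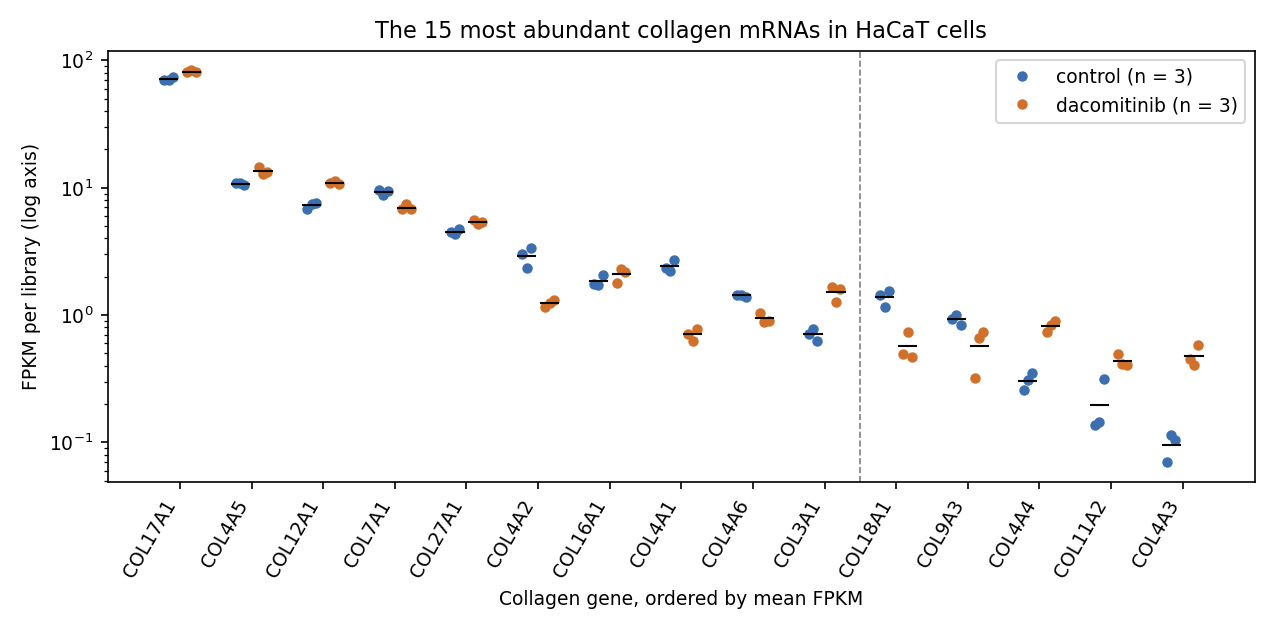
FPKM in each library (log axis) for the 15 most abundant collagen genes, with control libraries in blue, dacomitinib libraries in orange and a bar at each mean; genes right of the dashed line were below the expression limit. COL17A1 lies at 70.6 to 83.5 FPKM in every library, COL4A1 and COL4A2 sit lower with dacomitinib, and COL4A3 and COL4A4 sit higher.

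Genes of collagen IV were called in opposite directions, while the groups overlapped in the summed FPKM of all 6. The control libraries held 18.0, 17.4 and 18.5 FPKM of collagen IV in sum, and the dacomitinib libraries 18.7, 16.8 and 17.8 FPKM. That overlap depends on the scaling. All genes together summed to 289496 to 298073 FPKM in control libraries and to 228493 to 246591 FPKM in dacomitinib libraries. As a part of that total, collagen IV was higher in every dacomitinib library than in any control. Within the collagen IV sum the COL4A5 share went from 60.1 ± 2.95% to 76.4 ± 1.64%. The COL4A2 share went from 16.2 ± 2.42% to 7.01 ± 0.714% and the COL4A1 share from 13.5 ± 1.06% to 3.97 ± 0.364%. COL4A6 went from 7.95 ± 0.346% to 5.30 ± 0.253%, COL4A4 from 1.71 ± 0.238% to 4.66 ± 0.635%, and COL4A3 from 0.535 ± 0.137% to 2.69 ± 0.484% (SD, n = 3). Each of the 6 shares separated the groups without overlap, and shares within a library do not depend on the scaling between libraries. The shares of a library sum to a fixed total, so the 6 are not separate observations.

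**Figure D2:**
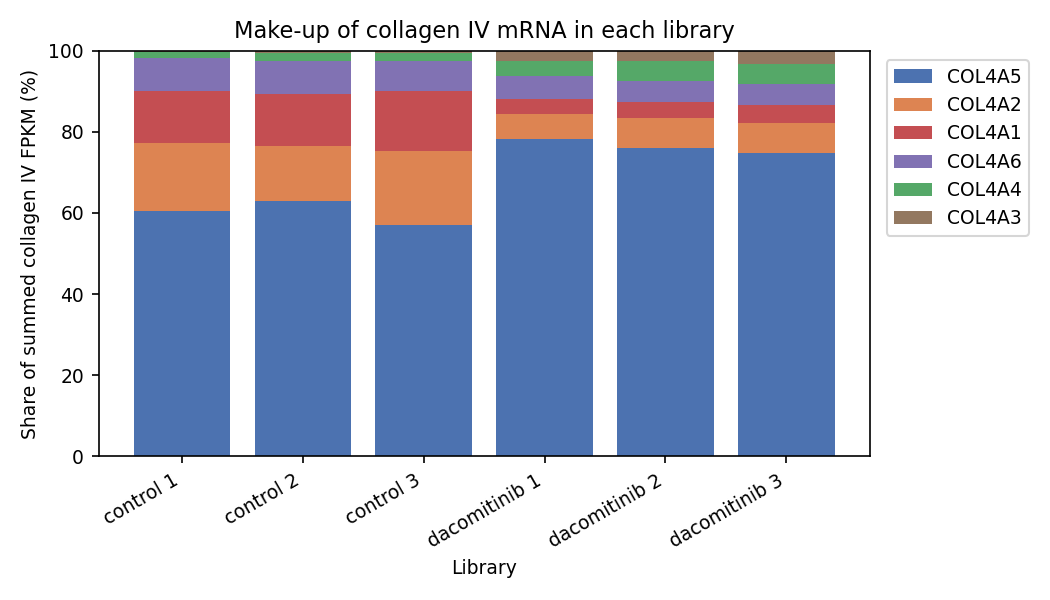
Share of the summed collagen IV FPKM held by each of its 6 genes (percent, stacked bars) in the 3 control and 3 dacomitinib libraries. The COL4A1 and COL4A2 segments are narrower in all 3 dacomitinib libraries and the COL4A5, COL4A3 and COL4A4 segments wider.

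COL4A1 and COL4A2 encode the most widespread collagen IV chains of basement membranes. COL4A1 (ENSG00000187498, chromosome 13, 110148963 to 110307233, minus strand, GRCh38) was at 2.32, 2.24 and 2.72 FPKM in the controls and at 0.706, 0.630 and 0.784 FPKM with dacomitinib. Every treated library lay below every control, and the mean fell 3.44-fold. The log2 difference was -1.004 (SE 0.12, limma adjusted p = 0.000406), and it was -1.78 with voom, a limma method for counts, on fragments recovered from the FPKM. Voom was given the library sizes implied by the FPKM, so here and below it keeps the deposited scaling. COL4A1 reached the expression limit only through its control level, so its call is given as a description. COL4A2 (ENSG00000134871, chromosome 13, 110305812 to 110513209, plus strand) was at 3.04, 2.34 and 3.36 FPKM in controls and at 1.16, 1.25 and 1.32 FPKM with dacomitinib. It fell 2.35-fold, a log2 difference of -0.80 (SE 0.12, limma adjusted p = 0.00153).

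Both genes of this pair were lower with dacomitinib. The ratio between them is a description, since COL4A1 reached the expression limit only through its control level. COL4A1 was at 0.764, 0.956 and 0.811 of the COL4A2 level in the controls and at 0.609, 0.504 and 0.595 with dacomitinib. On the log2 scale the ratio went from -0.25 ± 0.17 to -0.82 ± 0.15 (SD, n = 3), a difference of -0.57 with no overlap. An exact two-sided permutation test gave p = 0.1, the smallest that 3 against 3 libraries allow, and p = 0.1 after adjustment over the 2 ratios tested. The annotated spans of both genes overlap at their starts, without shared exon bases.

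COL4A5 and COL4A6 are the X-linked pair and differed in direction. COL4A5 (ENSG00000188153, chromosome X, 108439844 to 108697545, plus strand) was the second most abundant collagen mRNA, at 10.9, 10.9 and 10.6 FPKM in controls and at 14.6, 12.7 and 13.4 FPKM with dacomitinib. All treated libraries were above all controls, and the log2 difference was 0.31 (SE 0.06, limma adjusted p = 0.00402). With TPM the difference of COL4A5 was 0.63. COL4A6 (ENSG00000197565, chromosome X, 108155607 to 108439497, minus strand) was at 1.45, 1.43 and 1.40 FPKM in controls and at 1.04, 0.883 and 0.904 FPKM with dacomitinib. Its groups did not overlap either, and its log2 difference of -0.32 (SE 0.12, limma adjusted p = 0.0545) missed the threshold. With voom it passed at -0.60 (adjusted p = 0.00126), and with TPM it did not, at -0.23 (adjusted p = 0.347), with 0.00126 to 0.347 over 17 alternatives. COL4A6 reached the expression limit only through its control level, so these results too are a description.

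Relative to each other the X-linked genes were steady within a group. COL4A5 stood 7.52, 7.63 and 7.54 times above COL4A6 in the controls and 14.0, 14.4 and 14.8 times above it with dacomitinib. On the log2 scale the ratio went from 2.92 ± 0.01 to 3.85 ± 0.04 (SD, n = 3), a difference of 0.93 with no overlap. The exact permutation test again gave its smallest value, p = 0.1. COL4A6 reached the expression limit only through its control level, so this ratio too is a description. The second of the printed stretches, the one with CCAAT, lies between these genes.

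COL4A3 and COL4A4 encode chains best known from the basement membrane of the kidney glomerulus. Both were below the expression limit, so a filter of 0.1 FPKM on the mean was used, where limma tested 23723 genes and called 18.2% higher and 20.3% lower. COL4A4 (ENSG00000081052, chromosome 2, 227002711 to 227164453, minus strand) had 37, 48 and 52 fragments in the controls and 124, 141 and 157 with dacomitinib. It rose from 0.306 ± 0.0459 to 0.825 ± 0.0815 FPKM (limma adjusted p = 0.0101). COL4A3 (ENSG00000169031, chromosome 2, 227164565 to 227314792, plus strand) had 9, 16 and 14 fragments in the controls and 69, 61 and 92 with dacomitinib. Its mean was 0.0959 ± 0.0232 FPKM in controls and 0.478 ± 0.0910 FPKM with dacomitinib, and the groups did not overlap. COL4A3 passed the 0.1 FPKM filter only through its dacomitinib level, so its values are given here without a p-value. An antisense gene shares 1.31% of the exon bases of COL4A3, and strand is not stated for the counting.

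COL17A1, the hemidesmosomal collagen (ENSG00000065618, chromosome 10, 104031286 to 104085957), was at 70.6, 70.6 and 74.1 FPKM in the controls and at 80.4, 83.5 and 80.4 FPKM with dacomitinib. All 3 treated libraries lay above the controls. The rise was 1.14-fold, with a log2 difference of 0.18 (SE 0.04, limma adjusted p = 0.00843). That difference was 0.42 with quantile normalization and 0.50 with TPM, so its size depends on the scaling. COL7A1, the anchoring fibril collagen (ENSG00000114270, chromosome 3, 48564073 to 48595267), was at 9.66, 8.79 and 9.35 FPKM in the controls and at 6.76, 7.41 and 6.78 FPKM with dacomitinib. It fell 1.33-fold, a log2 difference of -0.36 (SE 0.06, limma adjusted p = 0.00186). With TPM the difference of COL7A1 was -0.09 and the call was lost (adjusted p = 0.381, with 2.27e-05 to 0.381 over 18 alternatives). TPM moved the median of all tested genes from -0.06 to 0.23 on the log2 scale, so COL7A1 lay below the median gene under either scaling.

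COL12A1 and COL16A1 encode fibril-associated collagens, which sit on the surface of other collagen fibrils. COL12A1 (ENSG00000111799, chromosome 6, 75084326 to 75206051) was at 6.81, 7.45 and 7.53 FPKM in controls and at 11.0, 11.3 and 10.6 FPKM with dacomitinib. It rose 1.51-fold, with a log2 difference of 0.53 (SE 0.06, limma adjusted p = 0.000237), and of 0.89 with TPM. The place of COL12A1 in the order of collagen levels changed too. In every control library COL12A1 was below COL7A1, and in every dacomitinib library it was above COL7A1. COL16A1 (chromosome 1, 31652247 to 31704319) was at 1.76, 1.71 and 2.05 FPKM in controls and at 1.80, 2.30 and 2.19 FPKM with dacomitinib. Those groups overlapped, and the log2 difference of 0.12 had a 95% interval of -0.14 to 0.38 (limma adjusted p = 0.373).

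Fibrillar collagens were scarce apart from COL27A1 and COL3A1. COL27A1, a fibrillar collagen best known from cartilage (ENSG00000196739, chromosome 9, 114155560 to 114312511), was at 4.49, 4.30 and 4.72 FPKM in controls and at 5.56, 5.21 and 5.39 FPKM with dacomitinib. Its log2 difference was 0.22 (SE 0.06, limma adjusted p = 0.0173), and 0.55 with TPM. That call was lost in limma without the control library 1 (adjusted p = 0.0534) or 2 (adjusted p = 0.0569). It was also lost when replicate 1 or 3 of the dacomitinib group was left out, each at an adjusted p of 0.0519, and the range over 17 alternatives was 0.000621 to 0.0569. COL3A1 (ENSG00000168542, chromosome 2, 188974320 to 189012746) had 69, 81 and 63 fragments in the controls and 189, 144 and 191 with dacomitinib, or 0.716, 0.771 and 0.629 against 1.66, 1.27 and 1.61 FPKM. It rose 2.15-fold, a log2 difference of 0.56 (SE 0.14, limma adjusted p = 0.0114). With quantile normalization the difference was 0.39 (adjusted p = 0.0522, with 8.59e-05 to 0.0522 over 17 alternatives). COL3A1 reached the expression limit only through its dacomitinib level, so its call is given as a description.

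The other fibrillar genes were below the expression limit. COL1A1, the main chain of dermal collagen, had 61, 52 and 30 fragments in the controls and 59, 27 and 21 with dacomitinib, and COL1A2, its partner chain, was listed at 0 in all 6 libraries. COL5A2, the neighbour of COL3A1 at 19149 bases tail to tail, had 24 fragments in all 3 controls together and 56 in the treated libraries, and its groups overlapped. Of 9 fibroblast markers, PDGFRA and THY1 were at 0 and VIM had 3 fragments over the controls and 0 with dacomitinib. DCN had 11 and 584 fragments and LUM 1 and 43, with no overlap between the groups for either. PDGFRB had 1 and 3, and FAP 3 and 5. The 9 markers together summed to 9.90 to 11.1 FPKM in controls and to 11.5 to 15.1 FPKM with dacomitinib. Of the 2 that were tested, FBLN1 rose from 6.01 ± 0.843 to 8.99 ± 1.43 FPKM and TWIST2 fell from 4.25 ± 0.803 to 2.54 ± 0.401 FPKM, a call not made with TPM.

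Of 8 endothelial markers, KDR, ERG and EMCN were at 0, and the sum was 1.87 to 2.22 FPKM in controls and 10.7 to 13.5 FPKM with dacomitinib. Most of it was CDH5, an endothelial cadherin, which went from 1.15 ± 0.0836 to 10.0 ± 1.39 FPKM. VWF was at 0.333 ± 0.0502 and 1.19 ± 0.0271 FPKM, without overlap, and PECAM1 at 0.474 ± 0.179 and 0.793 ± 0.161 FPKM, with overlap. TEK had 2 fragments over the controls and CLDN5 had 6, and both had 0 with dacomitinib. Of 7 melanocyte markers TYR was at 0, and the sum was 2.54 to 2.87 FPKM in controls and 3.55 to 4.34 FPKM with dacomitinib. Only MITF among them was tested, at 1.34 ± 0.0799 and 1.60 ± 0.236 FPKM (limma adjusted p = 0.307). PMEL was at 0.612 ± 0.0692 and 1.32 ± 0.0514 FPKM, TYRP1 had 8 fragments over the controls and 27 with dacomitinib, and DCT had 3 and 23, with no overlap for these 3. MLANA and SOX10 overlapped between the groups. The part of other cells in the collagen values was not tested.

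**Figure D3:**
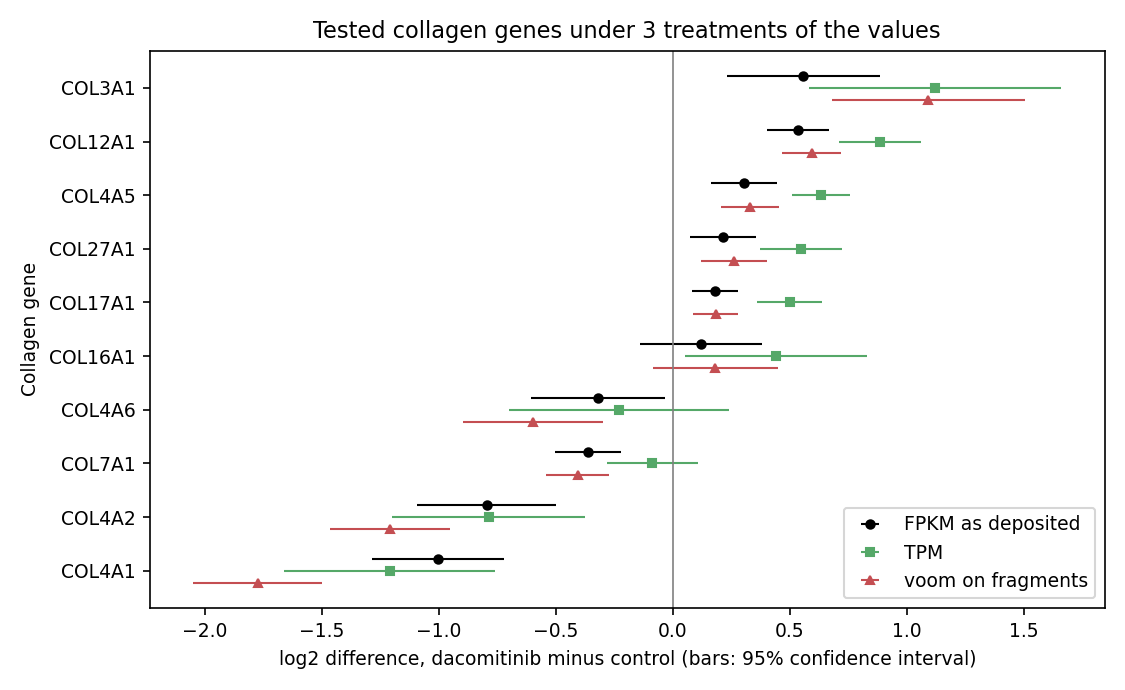
Log2 difference, dacomitinib minus control, with its 95% confidence interval for the 10 tested collagen genes from log2(FPKM + 1), log2(TPM + 1) and voom on recovered fragments. All 10 keep their sign under the 3, COL7A1 moves from -0.36 to -0.09 with TPM, and COL4A1 is lowest under each.

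Just below the expression limit lay COL18A1 and COL9A3. COL18A1, a basement membrane collagen whose end fragment is endostatin (ENSG00000182871, chromosome 21, 45405137 to 45513720), had a mean of 0.976 FPKM against 1.11 for COL3A1 just above the limit. It had 174, 152 and 195 fragments in the controls and 71, 104 and 70 with dacomitinib, 2.44-fold lower in mean FPKM. In limma with the 0.1 FPKM filter it fell (adjusted p = 0.00983). SLC19A1, on the opposite strand, shares 16.4% of the exon bases of COL18A1, so this value is uncertain without strand. COL9A3, a fibril-associated collagen of cartilage, had 64, 75 and 60 fragments in the controls and 26, 53 and 62 with dacomitinib. It did not pass on log2(FPKM + 1) (limma adjusted p = 0.137) and passed with voom at the same filter (adjusted p = 0.0378).

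That voom fit, added after the data were seen, called 21.4% of 23723 genes higher and 22.2% lower. Of 11 collagen genes between 0.1 and 1 FPKM it called COL4A3, COL4A4 and COL11A2 higher and COL18A1, COL9A3 and COL13A1 lower, and 5 did not pass. COL13A1 and COL26A1 reached 0.1 FPKM only in controls, and COL4A3, COL10A1 and COL5A2 only with dacomitinib. Those 5 entered the test through 1 group, so the counts here are a description and support nothing. Among these 11, limma on log2(FPKM + 1) called COL4A4 and COL18A1, and also COL4A3, which had passed the filter through 1 group only. COL11A2, a fibrillar chain of cartilage, had 13, 15 and 31 fragments in the controls and 56, 46 and 48 with dacomitinib. COL13A1, a transmembrane collagen, had 25, 10 and 22 in the controls and 7, 0 and 5 with dacomitinib. The genes that did not pass were COL1A1, COL9A2, COL26A1, COL10A1 and COL5A2, with 15 to 143 fragments each in the 3 controls together and 15 to 107 in the dacomitinib libraries.

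**Figure D4:**
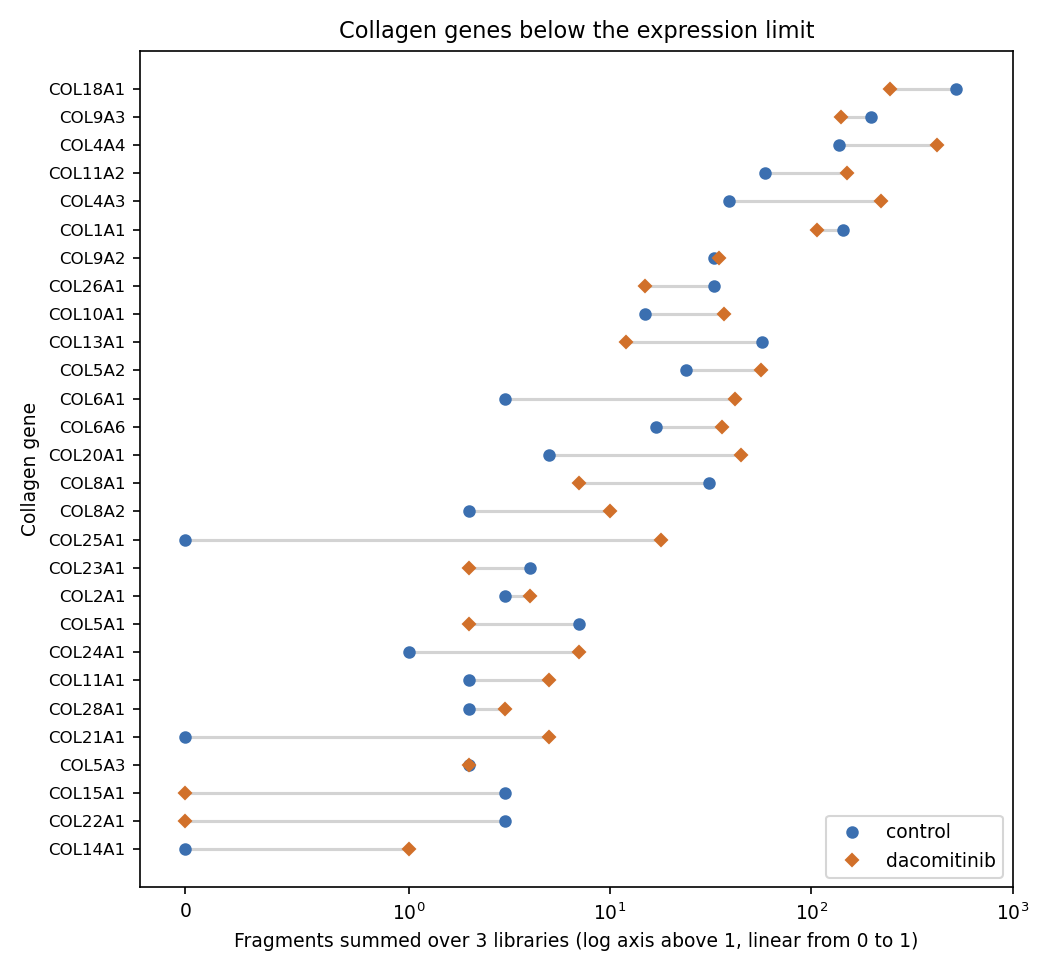
Fragments summed over the 3 control libraries (blue) and the 3 dacomitinib libraries (orange) for the 28 collagen genes that were below the expression limit and had at least 1 fragment; the axis is logarithmic above 1 and linear from 0 to 1. COL4A3 stands at 39 and 222 fragments and COL4A4 at 137 and 422.

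Under a mean of 0.1 FPKM, 17 genes had fragments and 6 had none. COL6A1, a chain of the beaded filaments of collagen VI, had 0, 3 and 0 fragments in the controls and 8, 19 and 15 with dacomitinib. Scaled by the library sizes implied by the FPKM, the ratio was 12.2, with a 95% interval of 3.91 to 61.6 for counting error only. COL6A2 and COL6A3, the chains it assembles with, were listed at 0 in all libraries, as were COL6A5, COL9A1, COL19A1 and COL1A2. COL20A1 had 2, 0 and 3 fragments in the controls and 2, 23 and 20 with dacomitinib, and COL25A1, a transmembrane collagen, had 0 in the controls and 7, 11 and 0 with dacomitinib. For both, 1 treated library was at the control level. COL8A1, a short-chain network collagen, had 19, 9 and 3 fragments in controls and 0, 5 and 2 with dacomitinib, and COL6A6 had 1, 7 and 9 against 17, 4 and 15. COL8A2 had 2 fragments over the controls and 10 with dacomitinib. The remaining 11 genes, COL23A1, COL2A1, COL5A1, COL24A1, COL11A1, COL28A1, COL21A1, COL5A3, COL15A1, COL22A1 and COL14A1, had at most 10 fragments each over all 6 libraries, where no difference was detectable at this depth.

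Genes that make, bind and cut collagen were counted in 7 lists with 85 entries, of which 57 were tested, and 22 were called higher and 25 lower. The background, 25.4% higher and 34.8% lower, applies to these counts. With TPM 29 were called higher and 13 lower, against 42.0% and 19.8% of all genes, so the split depends on the scaling. Enzymes that modify proline and lysine in the collagen chain were divided, with 4 of 11 higher and 6 lower. Both P4HA2 (3.66 ± 0.0960 against 7.93 ± 0.341 FPKM) and P4HA1 (30.2 ± 3.29 against 52.3 ± 2.85 FPKM), chains of the prolyl hydroxylases, rose. COLGALT1, which adds galactose to hydroxylysine, fell from 46.7 ± 1.98 to 27.3 ± 0.381 FPKM, and P3H4, a part of a collagen-modifying complex, from 3.83 ± 0.155 to 2.24 ± 0.163 FPKM.

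Of 13 genes for folding and export of collagen, 8 were lower and 2 higher (5 and 4 with TPM). SERPINH1, the collagen chaperone HSP47, fell from 29.8 ± 1.02 to 12.1 ± 1.92 FPKM, and SEC23A, a coat protein of the vesicles that leave the endoplasmic reticulum, from 14.9 ± 0.410 to 6.46 ± 0.119 FPKM. MIA2 and MIA3, receptors that load large cargo such as procollagen, rose, MIA2 from 8.12 ± 0.447 to 11.7 ± 0.672 FPKM and MIA3 from 9.21 ± 0.349 to 10.7 ± 0.135 FPKM. Among 3 genes for propeptide cleavage, the procollagen protease BMP1 rose from 11.0 ± 0.571 to 23.0 ± 1.21 FPKM and its enhancer PCOLCE from 0.670 ± 0.100 to 1.67 ± 0.295 FPKM, while the convertase FURIN fell from 17.2 ± 1.199 to 11.5 ± 0.258 FPKM. PCOLCE reached the expression limit only through its dacomitinib level, so its call is given as a description. Both crosslinking enzymes above the limit rose, while those below it differed in direction. LOXL2, a lysyl oxidase, went from 12.3 ± 0.917 to 27.9 ± 0.550 FPKM, and PXDN, which crosslinks collagen IV, from 3.08 ± 0.184 to 3.81 ± 0.310 FPKM (SD, n = 3). Below the limit, LOX had 165 fragments over the controls and 77 with dacomitinib, LOXL1 had 40 and 6, and LOXL4 had 40 and 315, each with no overlap. LOXL3, with 41 and 35, and TGM2, with 8 and 15, overlapped.

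Of 5 collagen receptor genes, 1 rose and 3 fell (2 and 1 with TPM). DDR1, a receptor tyrosine kinase for collagen, rose from 37.7 ± 2.39 to 46.7 ± 3.90 FPKM. ITGA2 and ITGA1, the integrin chains that bind collagen with ITGB1, fell from 83.4 ± 2.56 to 55.3 ± 2.18 FPKM and from 3.81 ± 0.580 to 2.54 ± 0.0886 FPKM, and the call of ITGA1 was not made with TPM. Of 7 proteases that can cut collagen, 5 rose and 1 fell. The collagenase MMP13 rose from 1.73 ± 0.640 to 14.7 ± 5.36 FPKM and the membrane protease MMP14 from 57.8 ± 3.58 to 112 ± 4.92 FPKM, while the collagenase MMP1 fell from 2.47 ± 0.513 to 0.765 ± 0.652 FPKM. MMP1 reached the expression limit only through its control level, so its call is given as a description.

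Among 16 tested basement membrane partners, 6 rose and 6 fell (8 rose and 1 fell with TPM). The laminin chain LAMB2 rose from 22.5 ± 1.61 to 47.6 ± 2.31 FPKM. LAMB3, a chain of the laminin of the hemidesmosome zone, rose from 86.6 ± 2.92 to 164 ± 11.8 FPKM. LAMB1, another laminin chain of that family, fell from 39.9 ± 1.76 to 16.02 ± 0.179 FPKM and remained lower with TPM. ITGA6, the hemidesmosomal integrin chain that shares its junction with COL17A1, fell from 162 ± 1.43 to 125 ± 1.22 FPKM, a call that was not made with TPM. ITGB4, another integrin chain of this list, went the other way, from 84.5 ± 3.05 to 114 ± 11.0 FPKM (limma adjusted p = 0.00243). It was called higher with TPM as well.

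**Figure D5:**
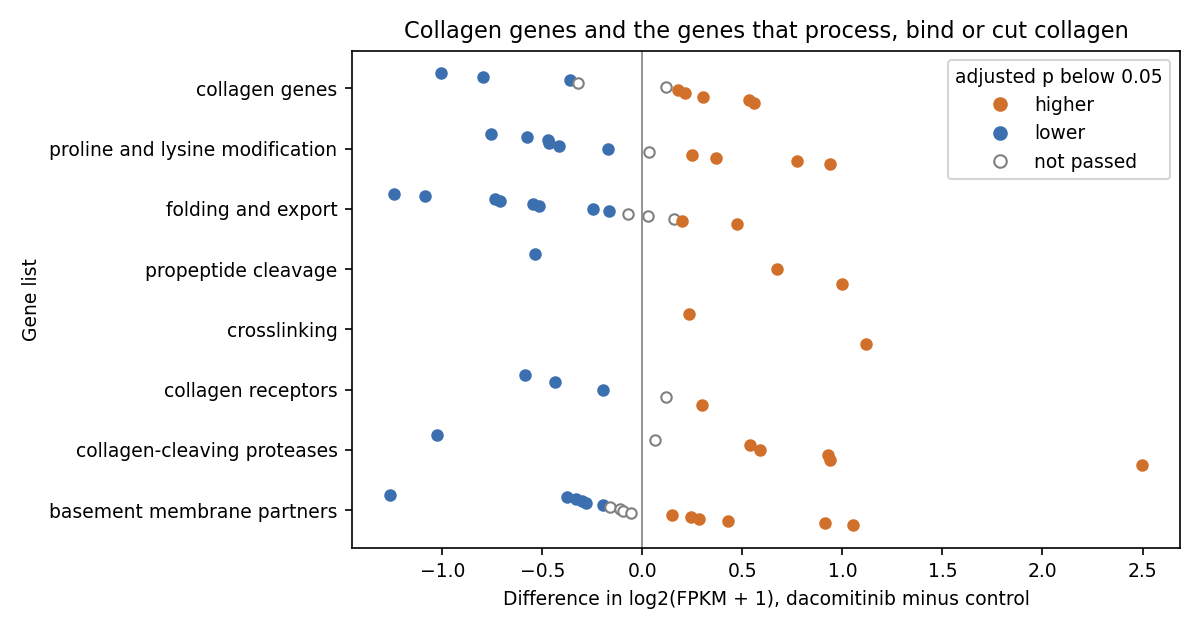
Difference in log2(FPKM + 1), dacomitinib minus control, for each tested collagen gene and each tested gene of the 7 lists; filled points passed the threshold (orange higher, blue lower) and open points did not. MMP13 lies farthest right at 2.50, and the folding and export list has 8 points called lower and 2 called higher.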

How the data were processed

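RNA sequencing of 3 control and 3 dacomitinib samples of HaCaT cells was used. Per the file headers, the authors deposited 1 FPKM value for each gene and library, beside its biotype and length. The tools named are DESeq2 1.20.0, featureCounts, HISAT2, fastp and CASAVA, and the build is GRCh38, per the submitters' processing notes, which give no roles. Strand is not stated. Multiplied by gene length, 100% of the values above 0 came out as whole fragments (tolerance 0.01), which gave the fragments per gene. The library size implied by the deposited FPKM was 0.946 to 0.954 times the library's own sum in controls and 1.05 to 1.09 times with dacomitinib. TPM, computed from these values, removes that difference.

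Values of log2(FPKM + 1) were tested with limma 3.58.1 (R 4.3.3), with a trend in the prior variance. The procedure was also run on simulated data, with far fewer changed genes than were called here and equal scaling of the groups. That simulation cannot show how the procedure performs where most genes are called. Alternatives were other pseudocounts, filters and scalings, no trend, robust variances, voom, a replicate block and each library left out. All 44 genes matched GENCODE 29 in identifier and coordinates. The members, lists and alternatives were chosen with earlier results of these data known. All collagen genes are named, with up to 2 rising and 2 falling genes per list and the other cell types' markers above the limit. The crosslinking enzymes and markers of other cell types below the limit, and ITGB4, were added after their values were seen. Intervals cover counting error only where they rest on fragments.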

Additional observations from a re-analysis of the deposited data

How the results depend on the processing

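Of the 10 tested collagen genes, 6 stayed on their side of the threshold under all alternatives that tested them (17 or 18 each), and none changed direction. Among the scalings, that by the median ratio of genes over libraries left the deposited values almost unchanged. It called 8271 genes, the number as reported, so it adds little as an alternative. Collagen genes called higher, 5 as reported, were 8 without a filter and 3 at a mean of at least 5 FPKM. Those called lower, 3 as reported, were 5 at a mean of at least 0.1 FPKM and 1 at 5 FPKM. These filters test other numbers of genes. The median of the tested collagen genes, 0.15 as reported, was 0.0056 without a filter, 0.24 at 5 FPKM and 0.47 with TPM. The difference in the log2 ratio of COL4A5 over COL4A6 was 0.88 with 0.1 FPKM added to each chain. COL9A2, below the limit, was at -0.0080 with limma and 0.053 with voom at the 0.1 FPKM filter, far from the threshold in both. With 1 library left out, 4 to 5 collagen genes were higher and 3 lower. COL4A6 gained a call at the 0.1 FPKM filter, with quantile normalization, without the trend and with voom. No label pairs the libraries, and the numbers of the dacomitinib columns only name them. Deviations of same-numbered libraries correlated at -0.0158 to 0.0402, across genes that are not independent replicates. Those of libraries with unlike numbers correlated at -0.0761 to 0.0533. Since the numbers carry no label, these values cannot show whether libraries were paired. With a replicate block 7883 genes were called against 8271, and 5 collagen genes were higher and 3 lower. Depth limits the 17 collagen genes under 0.1 FPKM, of which 11 had at most 10 fragments in all.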
